A study of Mus musculus with 6 samples.

Results

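The genes described here are 32 components of the intrinsic and extrinsic cell death pathways: the BCL2 family, caspases, the proteins of the apoptosome and of the death receptor complex, and their inhibitors. They were chosen by name and measured through probe sets annotated to exactly 1 of them. This gave 80 of 34945 such probe sets and 30 of 18193 genes. Bnip3l is annotated only together with a second gene on its probe sets, so it was left out, and Bax was not analysed here.

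RNA was measured in regulatory T (Treg) cells, the CD4+ T cells that restrain immune responses under the transcription factor Foxp3. The donors were C57BL/6 mice, with lymph node and spleen as the tissue, that carry the FoxP3hCD2 reporter, in which human CD2 marks Foxp3-expressing cells, and the cells were sorted as hCD2(+)CD4(+) and used without culture or treatment. The mice were Batf+/+ in 3 samples and Batf-/- in 3 samples. The labels name Batf-/- mice and no Cre, and they give neither age nor sex, nor whether animals were pooled, so the spread behind each p-value is that among 3 samples and could be partly technical. Batf is an AP-1 family transcription factor, and the comparison asks how the Treg transcriptome differs without it. Each sample was hybridised to 1 array. Values are on the log2 scale, and 0 is the Batf+/+ median of each probe set. They therefore give differences between arrays and never how abundant a transcript was, and whether Foxp3 or any other defining marker was present could not be read from them. With 3 arrays per genotype, their number sets how precise a value can be.

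Cells die by apoptosis when BAX or BAK proteins open the outer mitochondrial membrane, a step that BCL2, BCL-XL (Bcl2l1) and MCL1 hold back and that BH3-only proteins such as BIM (Bcl2l11) and PUMA (Bbc3) promote. Cytochrome c (Cycs) then leaves the mitochondria, binds APAF1 and activates caspase-9, while death receptors activate caspase-8 through FADD. In Treg cells, survival is known to depend on MCL1, and BIM is known to be the main BH3-only protein that removes T cells deprived of cytokine.

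The Batf probe set followed the labels, with values of -0.13, 0 and 0.14 on Batf+/+ arrays 1, 2 and 3 and of -3.13, -3.16 and -2.37 on Batf-/- arrays 1, 2 and 3. Its position relative to the deletion was not analysed here. Batf-/- array 3 had the highest mean of the 6 arrays over markers of B cells and over markers of myeloid cells. Its mean value over 7 B cell markers was 0.44, against -0.06 to 0.07 on the other arrays, and over 10 myeloid markers it was 0.26, against -0.15 to 0.07. It was the highest of the 6 arrays for 5 of 7 B cell markers, 6 of 10 myeloid markers and 4 of 7 dendritic cell markers, and for 0 of 7 Treg markers. The B cell surface receptor Cd22, at 1.76 on that array, and the myeloid gene Mpeg1, at 1.61, were picked after their values were seen. The means of 0.44 and 0.26 include them and were not taken without them. Apart from Mpeg1, the myeloid markers ran from -0.61 (Cebpb) to 0.59 (Lyz2) on Batf-/- array 3. On Batf+/+ array 3 they ran from -0.62 (Cebpb) to 0.56 (S100a9), so the myeloid mean leaned on Mpeg1. Cd22 and Mpeg1 were not high on that array alone. Both were also above all Batf+/+ arrays on Batf-/- arrays 1 (0.52 and 0.84) and 2 (0.43 and 0.20). Of all these markers, 4 of 7 B cell and 5 of 10 myeloid genes had a difference between genotypes above 0. The myeloid mean was -0.06 and -0.02 on Batf-/- arrays 1 and 2. The differences of Bcl2l11, Casp4, Casp1 and Il7r are given with and without Batf-/- array 3. For the other genes, sign changes without that array are only counted, in the last section.

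None of the 30 measured genes chosen here changed past the threshold in Batf-/- Treg cells. Of them 0 had a limma adjusted p below 0.05, against 208 of all 18193 genes (1.14%). Bcl2l15, a BCL2-related gene outside the 30, did pass and is given below with the related genes. At an unadjusted p below 0.05 there were 2 of 30, Cycs and Bcl2l11, against 7.69% of all genes. The median log2 difference (Batf-/- minus Batf+/+) over the 30 genes was -0.00044, and over all genes it was 0.0047. The median size of a difference in either direction was 0.059 for the 30 genes and 0.066 for all genes. Of the 30, 15 lay above 0, as did 51.8% of all genes, and 15 lay below. In bulk RNA of a sorted population, fewer cells of a type and less RNA per cell cannot be told apart.

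Most of these differences had narrow intervals. The values hold no level, so a narrow interval can also belong to a transcript that was not detected. The interval of a gene also averages probe sets that can differ. That of Bcl2l2 ran from -0.21 to 0.12, and that of its probe set 1423572_at from -0.63 to -0.23. In 27 of 30 genes the 95% interval of the difference lay within 1.5-fold either way, as it did in 95.3% of all genes, and in 29 of 30 it lay within 2-fold, against 99% of all genes. The 3 genes whose interval reached beyond 1.5-fold were Bcl2l11, Casp4 and Pmaip1. The smallest spread was that of Casp2, an initiator caspase, whose interval ran from -0.16 to 0.15, and the largest was that of Pmaip1, from -0.72 to 1.003.

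**Figure D1:**
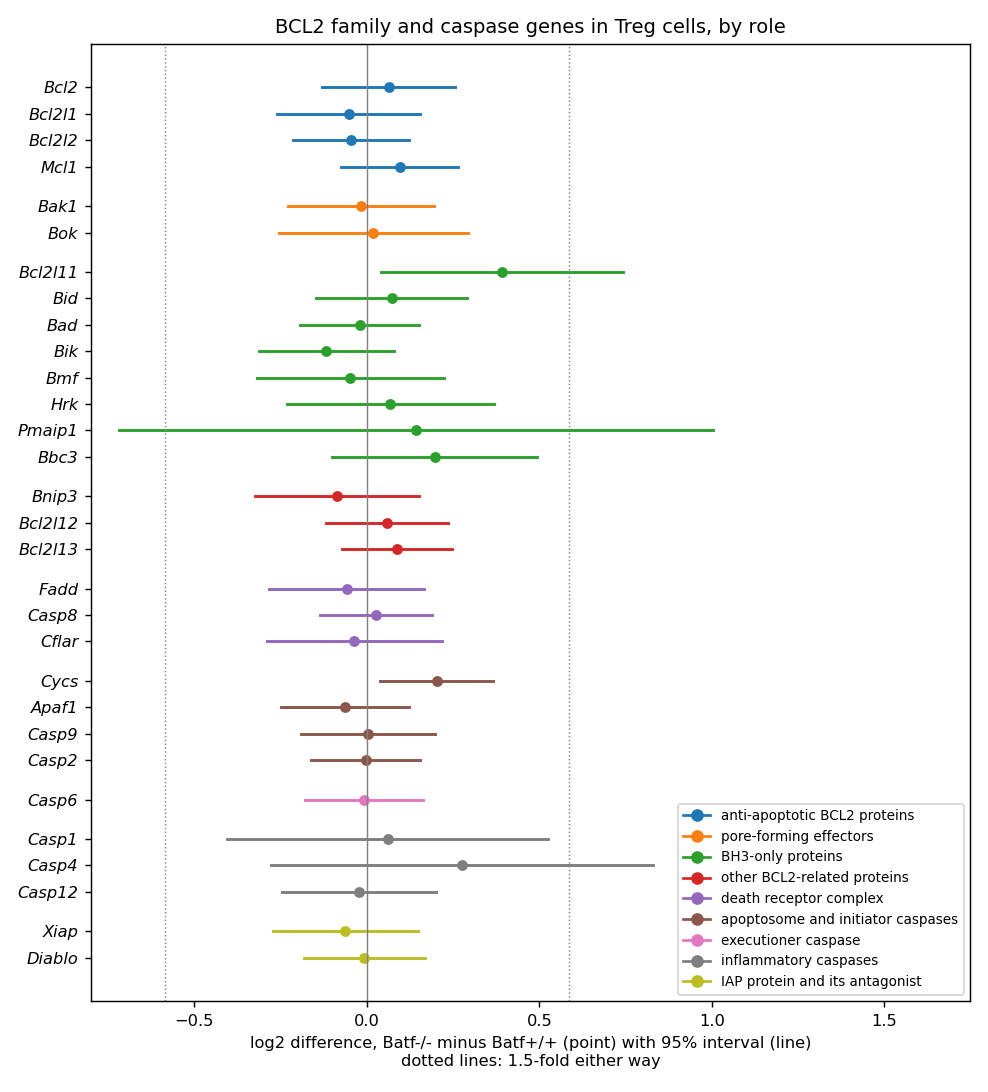
Log2 difference of each of the 30 genes between Batf-/- and Batf+/+ Treg cells (x axis, point) with its 95% interval from limma (line, n = 3 arrays per genotype), grouped by role. All intervals except those of Bcl2l11, Pmaip1 and Casp4 end inside the dotted lines at 1.5-fold, and only those of Bcl2l11 and Cycs leave out 0 before adjustment.

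Among the anti-apoptotic proteins, 0 of 4 passed the threshold and the differences ran from -0.05 to 0.09. Bcl2, which guards the mitochondrial membrane of resting lymphocytes, had values of -0.00089, -0.12 and 0.08 on Batf+/+ arrays 1, 2 and 3 and of 0.12, 0.08 and -0.06 on the Batf-/- arrays. The genotypes overlapped, and the fitted difference was 0.06 ± 0.09 (SE of the limma fit; n = 3 arrays in each genotype here and below; adjusted p = 0.9999, 95% interval -0.13 to 0.26). Mcl1, a short-lived survival protein, had values of 0.02, -0.12 and -0.01 in Batf+/+ cells and of 0.03, 0.08 and 0.06 in Batf-/- cells. These did not overlap, but the difference of 0.09 ± 0.07 (adjusted p = 0.954, interval -0.07 to 0.26) was small, and the 6 probe sets of Mcl1 gave 0.07 to 0.12. Bcl2l1 had values of -0.09, -0.03 and 0.12 in Batf+/+ cells and of -0.17, 0.05 and -0.03 in Batf-/- cells. Its genotypes overlapped, with a difference of -0.05 ± 0.09 and an interval of -0.26 to 0.16.

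Bcl2l2, which encodes the anti-apoptotic BCL-W, had a gene difference of -0.05 ± 0.07 that hid unlike probe sets. Its probe set 1423572_at read 0, -0.11 and 0.06 on the Batf+/+ arrays and -0.51, -0.40 and -0.42 on the Batf-/- arrays, lower on all 3. That difference of -0.43 ± 0.09 (limma adjusted p = 0.0954) had the smallest p of the 80 probe sets and did not pass. The other 3 probe sets of Bcl2l2 gave 0.01 to 0.18. Of 1093 genes with 4 probe sets, 96.8% had probe sets that lay no further apart than these.

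Of the pore-forming effectors, Bak1 and Bok were measured. Bak1, which opens pores in the outer mitochondrial membrane, had a difference of -0.02 ± 0.09 and Bok, a related protein, one of 0.02 ± 0.12. Neither passed, and the arrays of both genes overlapped between the genotypes.

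The BH3-only genes held the widest differences, from -0.12 (Bik) to 0.39 (Bcl2l11), and 0 of 8 passed. Bcl2l11, which encodes BIM, had values of 0.10, -0.05 and 0.04 on Batf+/+ arrays 1, 2 and 3 and of 0.70, 0.54 and 0.03 on Batf-/- arrays 1, 2 and 3. Batf-/- arrays 1 and 2 were above every Batf+/+ array, and Batf-/- array 3 lay among them. The log2 difference was 0.39 ± 0.15 (SE, limma adjusted p = 0.539, interval 0.04 to 0.74). Without Batf-/- array 3, which had the highest B cell and myeloid marker means, it was 0.59 ± 0.09 with an adjusted p of 0.0291. The call therefore turned on that array. The part of the other cell types in this difference was not tested.

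All 5 probe sets of Bcl2l11 gave differences above 0, from 0.15 to 0.78. Probe set 1456006_at read 0, -0.12 and 0.47 in Batf+/+ cells and 0.98, 1.11 and 0.61 in Batf-/- cells, a difference of 0.78 ± 0.18 (limma adjusted p = 0.163). Probe set 1435448_at read 0.09, -0.01 and 0 in Batf+/+ cells and 0.56, 0.70 and 0.27 in Batf-/- cells, a difference of 0.48 ± 0.12 (adjusted p = 0.199). In these 2 probe sets the genotypes did not overlap, Batf-/- array 3 included. In the other 3, Batf-/- array 3 was the lowest of the 6 arrays, at -0.18, -0.42 and -0.15. The spread among the 5 probe sets was as wide as or wider than that of 96.8% of the 463 genes with 5 probe sets.

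**Figure D2:**
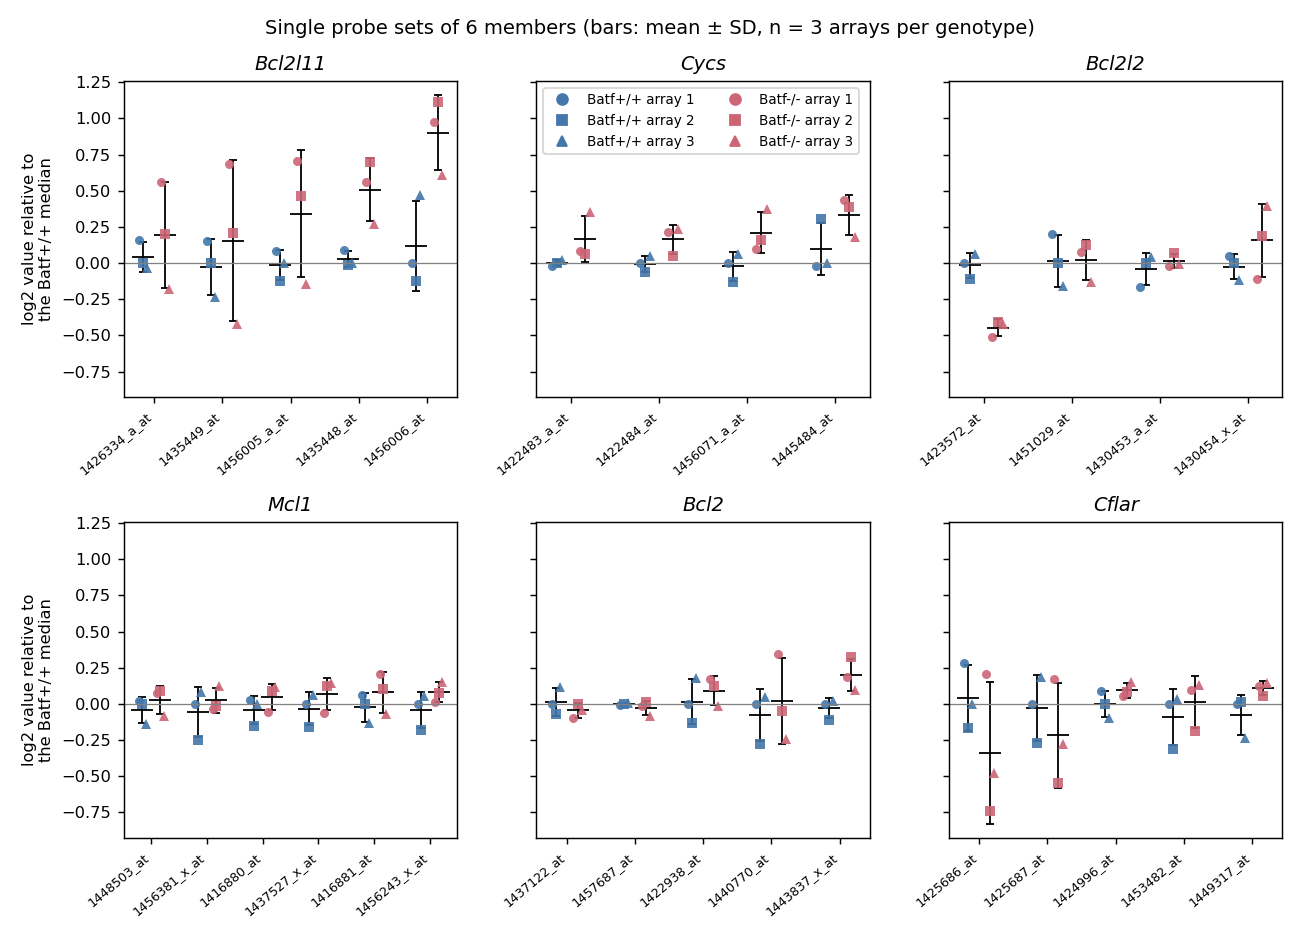
Values of single probe sets (x axis) of 6 genes on each array (y axis, log2 relative to the Batf+/+ median), with circles, squares and triangles for arrays 1, 2 and 3 and bars for the mean ± SD (n = 3 arrays per genotype). The probe sets of Bcl2l11 range from 0.15 to 0.78 in their difference between genotypes, those of Mcl1 only from 0.07 to 0.12, and 1 of the 4 probe sets of Bcl2l2 stands below the others.

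Bbc3, which encodes PUMA, a target of p53, had values of 0.08, 0 and -0.28 in Batf+/+ cells and of 0.28, 0.23 and -0.12 in Batf-/- cells. The genotypes overlapped (difference 0.20 ± 0.13, limma adjusted p = 0.909), while in each same-numbered pair the Batf-/- array was higher, by 0.20, 0.23 and 0.16. Bik had values of 0, -0.04 and 0.12 in Batf+/+ cells and of -0.17, -0.13 and 0.04 in Batf-/- cells. Its difference was -0.12 ± 0.09, the lowest of the 30 genes. Its arrays overlapped, and the same-numbered pairs differed by -0.17, -0.10 and -0.09. Bid, which links caspase-8 to the mitochondria once cleaved, had values of 0.20, -0.12 and -0.03 in Batf+/+ cells and of 0.11, 0.03 and 0.13 in Batf-/- cells. Its difference of 0.07 ± 0.10 lay within the Batf+/+ SD of 0.17.

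Pmaip1, which encodes the MCL1 antagonist NOXA, varied more between arrays than between genotypes. Its only probe set read 0, 0.22 and -1.18 on Batf+/+ arrays 1, 2 and 3 and 0.41, -0.16 and -0.79 on Batf-/- arrays 1, 2 and 3, so the arrays numbered 3 were the lowest in both genotypes. The difference was 0.14 ± 0.38, and the SD within genotypes was 0.68, as large as or larger than that of 99.9% of all genes. The other BH3-only genes were Hrk (0.07 ± 0.13), Bmf (-0.05 ± 0.12) and Bad (-0.02 ± 0.08). All 3 had overlapping arrays. In Bmf, which encodes a BH3-only protein tethered to the cytoskeleton, 1 probe set reached 1.22 on Batf+/+ array 3 against -0.24 to 0.19 on the other arrays.

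Among the other BCL2-related genes, 0 of 3 passed. Bcl2l13, a mitochondrial outer membrane protein that acts as a mitophagy receptor, had values of 0.04, -0.01 and 0.0041 in Batf+/+ cells and of 0.14, 0.06 and 0.09 in Batf-/- cells. The genotypes did not overlap, and the difference was 0.09 ± 0.07 (limma adjusted p = 0.961). Bnip3, a mitophagy receptor induced in hypoxia, had values of -0.05, 0.08 and 0 in Batf+/+ cells and of 0.14, -0.11 and -0.25 in Batf-/- cells, which overlapped (difference -0.09 ± 0.10). Bcl2l12 read -0.06, -0.0061 and 0.12 in Batf+/+ cells and 0.05, 0.11 and 0.07 in Batf-/- cells, also overlapping (difference 0.06 ± 0.08).

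Counted by arrays, 3 of the 30 genes, Cycs, Mcl1 and Bcl2l13, had all 3 Batf-/- arrays above all 3 Batf+/+ arrays, and 0 had them below. Such a separation in either direction was found in 12% of all genes. At the level of probe sets it was found in 13 of 80 (9 higher and 4 lower), against 11.7% of all probe sets. Of the 80 probe sets 0 had an adjusted p below 0.05, against 0.713% of all, and 6 had an unadjusted p below 0.05, against 6.9% of all.

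**Figure D3:**
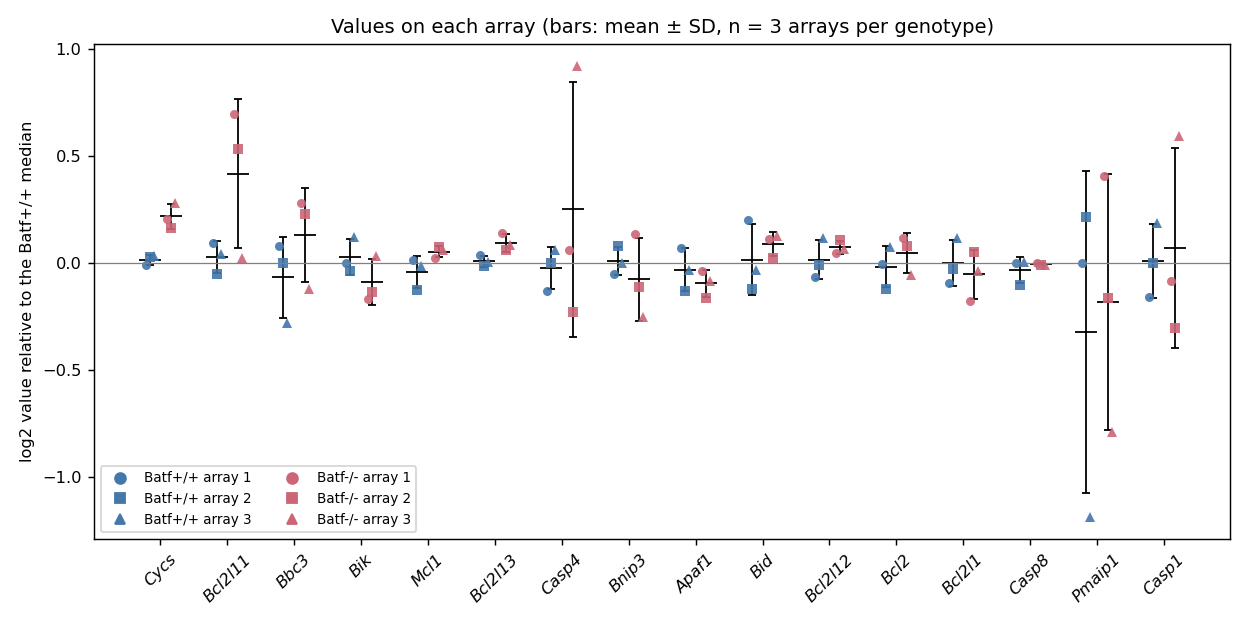
Values of 16 genes on each array (y axis, log2 relative to the Batf+/+ median), with circles, squares and triangles for arrays 1, 2 and 3 and bars for the mean ± SD (n = 3 arrays per genotype). The Batf-/- points of Cycs lie tightly above those of Batf+/+, Bcl2l11 is high on Batf-/- arrays 1 and 2, Casp4 and Casp1 are high on Batf-/- array 3, and Pmaip1 is low on the arrays numbered 3 of both genotypes.

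In the apoptosome, Cycs had the smallest p of the 30 genes. Its values were -0.0097, 0.03 and 0.03 in Batf+/+ cells and 0.21, 0.17 and 0.28 in Batf-/- cells, so all 3 Batf-/- arrays lay above all 3 Batf+/+ arrays. The log2 difference was 0.20 ± 0.07 (SE, limma adjusted p = 0.439, interval 0.04 to 0.37), a 1.15-fold difference that did not pass. All 4 probe sets of Cycs gave similar values, from 0.17 to 0.24, and only 5.58% of the 1093 genes with 4 probe sets had theirs this close together or closer. Apaf1, the scaffold that cytochrome c binds, had values of 0.07, -0.13 and -0.03 in Batf+/+ cells and of -0.04, -0.16 and -0.08 in Batf-/- cells. These overlapped, with a difference of -0.06 ± 0.08 and pair differences of -0.11, -0.03 and -0.05. The initiator caspases Casp9 (0.0026 ± 0.09) and Casp2 (-0.0035 ± 0.07) had the differences nearest to 0 of all 30 genes.

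For the 2 genes with an unadjusted p below 0.05, 1 promoter window each is shown, with the letters of 3 elements in capitals where they occur. RefSeq windows of GRCm38.p6, from 250 bases before to 50 bases after a start site, were at hand for 29 of the 32 genes (40 windows), without Bik, Bnip3l and Pmaip1. They were searched on both strands for the AP-1 element TGANTCA, to which Batf dimers are known to bind, the cyclic AMP response element TGACGTCA and the forkhead element GTAAACA. None of these overlaps another. The window of Cycs lies at chr6:50566520-50566819 on the minus strand and holds TGACGTCA, which starts at base -169 from the start site. The first window of Bcl2l11 lies at chr2:128125788-128126087 on the plus strand and holds GTAAACA, which starts at base -227. Its second window, at chr2:128127325-128127624, holds none of the 3 elements and is not shown.
Cycs: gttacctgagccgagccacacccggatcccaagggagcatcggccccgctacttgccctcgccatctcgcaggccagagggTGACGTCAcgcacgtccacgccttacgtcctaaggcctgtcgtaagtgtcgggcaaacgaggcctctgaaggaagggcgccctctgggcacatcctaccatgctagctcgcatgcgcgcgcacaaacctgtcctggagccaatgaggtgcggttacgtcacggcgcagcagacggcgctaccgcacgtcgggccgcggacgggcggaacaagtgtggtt
Bcl2l11: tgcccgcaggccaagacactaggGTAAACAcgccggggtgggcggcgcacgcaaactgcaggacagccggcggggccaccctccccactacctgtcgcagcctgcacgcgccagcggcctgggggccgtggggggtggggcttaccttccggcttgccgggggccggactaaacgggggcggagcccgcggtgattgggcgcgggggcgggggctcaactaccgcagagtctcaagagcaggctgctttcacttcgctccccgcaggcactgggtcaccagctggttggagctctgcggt

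The letters TGANTCA were found in 0 of the 40 windows, against 7.81% of all 32851 windows. The letters TGACGTCA were found in 1 of the 40, that of Cycs, against 1.79% of all windows. GTAAACA was found in 4 windows, of Bcl2l11, Bbc3 and Casp4 (the 2 windows of Casp4 overlap), against 3.65% of all. The member windows had a median GC content of 61% and all windows one of 52.7%. A match is a description of these letters, and windows without one say nothing of binding elsewhere in a gene.

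In the death receptor complex 0 of 3 genes passed. Casp8, the initiator caspase that death receptors activate, varied little, with values of 0, -0.10 and 0.0049 in Batf+/+ cells and of 0.00032, -0.0083 and -0.0076 in Batf-/- cells. Its difference was 0.03 ± 0.07 (interval -0.14 to 0.19), and the genotypes overlapped. Fadd, the adaptor that brings caspase-8 to the receptor, had a difference of -0.06 ± 0.10, with its 2 probe sets at -0.24 and 0.12. Cflar, which encodes the caspase-8 inhibitor c-FLIP, had a difference of -0.04 ± 0.11, with its 5 probe sets between -0.38 and 0.18. The lowest of these, 1425686_at, read 0.28, -0.17 and 0 in Batf+/+ cells and 0.20, -0.74 and -0.48 in Batf-/- cells, so Batf-/- arrays 2 and 3 were low while array 1 was not.

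The executioner caspase Casp6 had a difference of -0.0084 ± 0.08. Xiap, which blocks active caspases, had one of -0.06 ± 0.09, with 3 of its 7 probe sets above 0, and Diablo, the mitochondrial protein that relieves this block, had one of -0.0076 ± 0.08. The arrays of all 3 genes overlapped.

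Inflammatory caspases such as caspase-1 act on cytokine precursors and gasdermin D rather than in apoptosis. Of the 3 genes grouped under this name 0 passed. Together with Pmaip1, Casp4 and Casp1 had the largest SDs of the 30 genes on Batf-/- arrays (0.60 and 0.47). Casp4 (caspase-11) had values of -0.13, 0 and 0.06 in Batf+/+ cells and of 0.06, -0.23 and 0.92 in Batf-/- cells. Its difference of 0.28 ± 0.24 (limma adjusted p = 0.978) rested on Batf-/- array 3 and was -0.06 without it. Casp1, which matures interleukin 1 beta and interleukin 18, had values of -0.16, 0 and 0.19 in Batf+/+ cells and of -0.08, -0.30 and 0.59 in Batf-/- cells. Its difference was 0.06 ± 0.21 with all arrays and -0.20 without Batf-/- array 3. That array also had the highest B cell (0.44) and myeloid (0.26) marker means, whose part in these values was not tested. The third gene, Casp12, had a difference of -0.02 ± 0.10.

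Other genes of the pathway were taken from 7 lists of 81 genes in all, of which 70 were measured, and 3 of these fell and 0 rose in Batf-/- cells (background 0.83% lower and 0.313% higher among all genes). Their median log2 difference was -0.0054. The 3 that fell were Fasl, Bcl2l15 and Il18.

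Fasl, the ligand with which T cells trigger the death receptor Fas, had values of 0.30, -0.06 and -0.06 in Batf+/+ cells and of -0.62, -0.78 and -1.14 in Batf-/- cells. All 3 Batf-/- arrays were below all 3 Batf+/+ arrays, a log2 difference of -0.91 ± 0.15 that passed (1.88-fold, limma adjusted p = 0.0228). Its 2 probe sets gave -0.90 and -0.92, with adjusted p values of 0.187 and 0.0616 when each was tested alone. The adjusted p of Fasl was 0.0868, 0.0651 and 0.0524 without Batf+/+ array 1, 2 or 3, 0.0681 without Batf-/- array 2 and 0.0601 after quantile normalization. It was the only one of 10 measured genes of the list of death receptors and ligands to pass, and the list had a median of -0.09.

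Bcl2l15, a BCL2-related gene with a pro-apoptotic product, had values of -0.14, 0 and 0.17 in Batf+/+ cells and of -1.06, -0.90 and -0.64 in Batf-/- cells. The genotypes did not overlap, and it was 1.84-fold lower (-0.88 ± 0.12, limma adjusted p = 0.0106), with an adjusted p of 0.0555 without Batf+/+ array 2 and of 0.0882 after quantile normalization. It was measured by 1 probe set and was 1 of 4 measured genes in a list of 9 further BCL2 family and caspase genes.

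Il18, the cytokine precursor that caspase-1 cleaves, was measured by 1 probe set. Its values were 0, -0.21 and 0.12 in Batf+/+ cells and -1.92, -1.38 and -1.09 in Batf-/- cells. It was 2.70-fold lower (-1.43 ± 0.19, limma adjusted p = 0.00762), with an adjusted p of 0.0603 after quantile normalization, and it was the only one of 9 measured inflammasome and necroptosis genes to pass. The difference of its protease Casp1 stood at 0.06 ± 0.21.

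**Figure D4:**
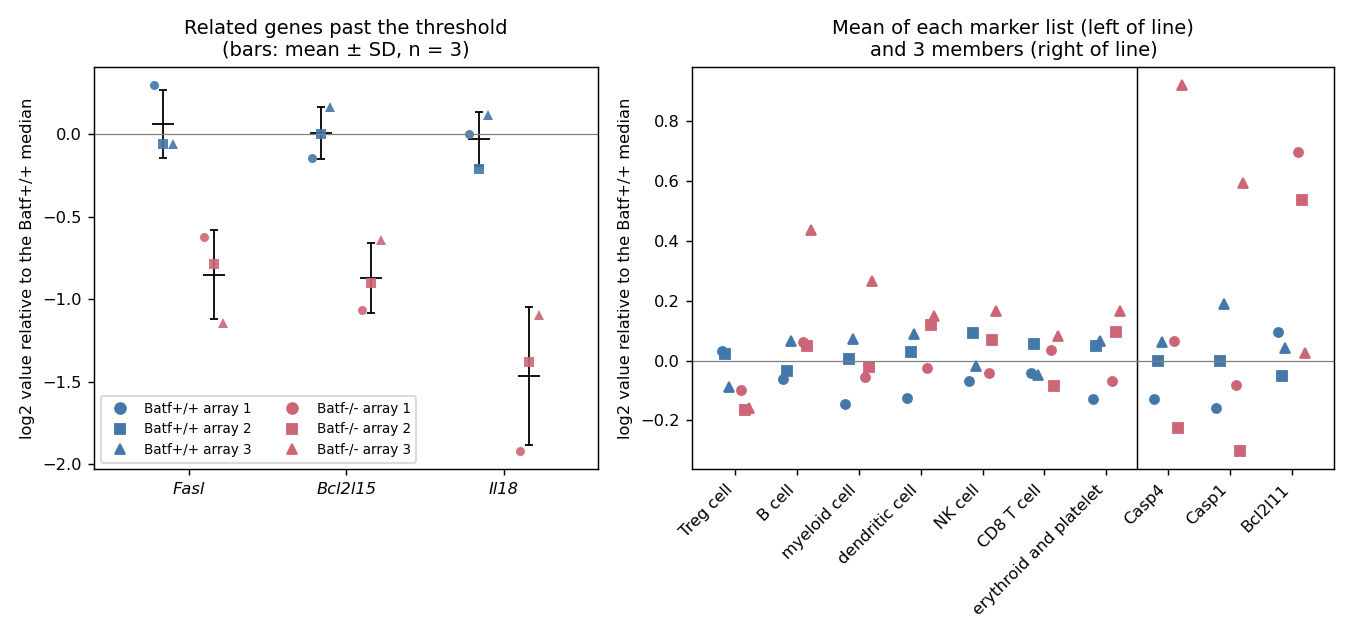
Left, values of Fasl, Bcl2l15 and Il18 on each array (y axis, log2 relative to the Batf+/+ median) with the mean ± SD (n = 3 arrays per genotype), where all Batf-/- arrays lie below all Batf+/+ arrays. Right, the mean over each list of cell type markers on each array, and beside them Casp4, Casp1 and Bcl2l11. Batf-/- array 3 (triangle) has the highest mean for every marker list except that of Treg cells, and is highest for Casp4 and Casp1. It lies among the Batf+/+ arrays for Bcl2l11. Its NK cell mean includes Eomes at 0.84, and it was highest for 1 of 5 NK markers. The CD8 T cell list has 2 genes.

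In the other 4 lists 0 genes passed. The smallest p in each belonged to the inhibitor of apoptosis Birc2 (difference 0.33 ± 0.09, limma adjusted p = 0.182, among 14 measured genes of the IAP family and mitochondrial death factors), the p53 target Sesn1 (0.29 ± 0.08, adjusted p = 0.209, among 11 genes of the p53 axis), the survival kinase Pim2 (0.37 ± 0.10, adjusted p = 0.196, among 12 genes of cytokine survival signalling) and the caspase substrate Gsn (-0.20 ± 0.07, adjusted p = 0.485, among 10 caspase substrates and clearance genes). In all 4 the arrays of the genotypes did not overlap, as in 12% of all genes. Each was picked for the smallest p in its list, a choice that favours separated arrays. The interleukin 7 receptor chain Il7r, named here after its value was seen, had a difference of 0.49 ± 0.22 with overlapping genotypes (limma adjusted p = 0.667), with Batf-/- array 3 at -0.04. Without that array it was 0.78 (adjusted p = 0.0277). Of 43 measured markers of Treg cells and other blood cells 0 passed with all arrays. The mean over the 7 Treg markers was 0.03, 0.02 and -0.09 on Batf+/+ arrays 1, 2 and 3 and -0.10, -0.17 and -0.16 on the Batf-/- arrays. It was lower on all 3 Batf-/- arrays, but array 1 (-0.097) was only just below Batf+/+ array 3 (-0.089). Of the 7 markers, 5 had differences below 0. Ikzf2, which encodes Helios, had a difference of -0.51 ± 0.10 (limma adjusted p = 0.0526). It read -0.41, -0.67 and -0.47 on the Batf-/- arrays, and no mean was taken without it. Foxp3 had a difference of -0.12 ± 0.08 (adjusted p = 0.892). Neither gene overlapped between genotypes, as in 12% of all genes. For Foxp3, Batf-/- array 1 (-0.152) lay close to Batf+/+ array 3 (-0.145). The 2 markers above 0 were Il2ra (0.21 ± 0.07, adjusted p = 0.394), higher on all 3 Batf-/- arrays, and Cd4 (0.0093 ± 0.08), which overlapped. Ikzf2 passed with the median of its probe sets (adjusted p = 0.0439) and with array weights (0.0140). The part of this list in the values of the cell death genes was not tested.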

How the data were processed

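The authors used RMA for the deposited values, per the submitters' processing notes, and its version is not given in the sources used here. They were taken as log2 values, as RMA gives them. The log base is an assumption. The deposited log2 values were centred on the Batf+/+ median, a step that no label describes: among the Batf+/+ arrays the median is exactly 0 in all 45101 rows. Centring leaves differences between genotypes as they were and removes levels, so no filter on low values could be applied and signal over background is unknown. 

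The platform annotation gave 34945 probe sets 1 gene and 932 several. It listed no gene for 9160, and 64 were control probe sets. Of those with 1 gene, 34741 matched RefSeq by Entrez identifier and 0 symbols changed. A gene is the mean of its probe sets. Genotypes were compared with limma 3.58.1 in R 4.3.3 (lmFit and eBayes, genotype as the only term) with Benjamini-Hochberg adjustment over all genes, or over all probe sets where a probe set is named. The threshold was an adjusted p below 0.05.

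The members and lists were chosen with earlier results of these data known. Values by array are given for Bcl2, Bcl2l1, Mcl1, Bcl2l11 and Casp8, for the 12 members with the smallest p, and for any member called. Related genes are named where called, or else the 1 with the smallest p in its list. Pmaip1, Casp1, single probe sets, Cd22 and Mpeg1 were given by array after their values were seen.

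After subtracting group means, arrays that share a number had correlations over all genes of 0.41, 0.15 and 0.41. Each is above 0.1, which is the only ground on which the numbers in the titles were treated as pairs. No label says what a number marks.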

Additional observations from a re-analysis of the deposited data

How the results depend on the processing

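The count of 0 called genes among the 30 was the same under every alternative at the level of genes and of single probe sets except without Batf-/- replicate 3, where Bcl2l11 made it 1 gene (0 to 1 over the arrays left out in turn). Over 13 alternatives the log2 difference of Bcl2l11 was 0.25 to 0.59 with adjusted p values of 0.0291 to 1, and that of Cycs 0.16 to 0.23 with adjusted p values of 0.245 to 1. The 30 genes have no called direction. Between 0 and 9 of them changed sign under an alternative, the most without Batf+/+ replicate 1 or Batf-/- replicate 3. With the replicate block, which raised the count over all genes from 208 to 293, 0 members were called, the lowest adjusted p among them was 0.244 (Bbc3), and no call named here changed. Quantile normalization gave 81 genes in all and 0 related genes. It was run on the centred values, whose SD over all genes was 0.11 to 0.14 on Batf+/+ arrays and 0.21 to 0.23 on Batf-/- arrays. It makes these spreads equal, and under it the difference of Batf itself went from -2.89 to -2.02. A call lost under it therefore cannot be told apart from this shrinkage. Leaving out each array in turn gave 105 to 192 genes in all and 1 to 4 related genes called, and a median over the 30 genes of -0.015 to 0.041. The number of cell type markers called was 1 with the median of probe sets and 1 with array weights (Ikzf2 in both), and 0 to 1 with arrays left out (Cd22 without Batf-/- replicate 3). The cause of these changes was not tested. With an array left out 1 group has 2 arrays. With centred values no filter on low signal could be tried, and 29 of the 30 genes had a probe set without a shared-sequence suffix.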
